A study of Homo sapiens with 5 samples.

Results

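AP-1 is a family of dimeric transcription factors built from FOS proteins (FOS, FOSB, FOSL1 and FOSL2) and JUN proteins (JUN, JUNB and JUND). The 7 genes were taken as the rows of the deposited expression table that carry these symbols, and all 7 of 57773 listed genes were found. The series holds 5 RNA libraries of HCT116 cells, a line from a human colorectal carcinoma, in a Dicer-knockout derivative according to the series' description. The cells had been transfected with methylated let-7a (labelled 19A), native let-7a, methylated miR-17 (labelled 13A), native miR-17 or a negative control, with 1 library for each. All groups, the control included, share the Dicer-knockout background, and the labels give neither the number of knockout clones, the time after transfection, nor the kind of methyl group. DICER1 itself was listed at 11.2 to 15.9 TPM in all 5 libraries, and since the labels do not say which part of the gene was disrupted, this level does not check the knockout. The values are in TPM, a share of the library's transcripts that takes gene length into account, so levels of different genes can be set side by side.

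JUN proteins pair with one another or with FOS proteins, whereas FOS proteins do not form stable dimers among themselves and generally need a JUN partner to bind DNA. FOS, FOSB, JUN and JUNB are immediate early genes, switched on within minutes by growth factors through the ERK and JNK kinase cascades, while FOSL1 (FRA-1) and FOSL2 (FRA-2) are induced later and lack the strong activation domain of FOS. FOSL1 is known for its high level in carcinomas with active RAS signalling, where it supports invasion, and JUND is abundant in many resting cells. MicroRNAs guide Argonaute proteins to messages that pair with their seed, the bases at positions 2 to 8 from the 5′ end, and Dicer is the enzyme that releases them from their precursors.

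The mature sequences of the transfected microRNAs, credited to RefSeq (GRCh38.p14), are shown because the seed (in capitals) defines the sites searched in the 7 genes. The sequences of the transfected oligonucleotides themselves are not given in the labels. The human let-7a-5p sequence is encoded at 3 loci, on chromosomes 9, 11 and 22, and miR-17-5p on chromosome 13. Position 19 of let-7a-5p and position 13 of miR-17-5p, the numbers in the labels, are both A in these sequences.
hsa-let-7a-5p: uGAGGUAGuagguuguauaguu
hsa-miR-17-5p: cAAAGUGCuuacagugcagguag

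A seed site was a stretch that pairs with positions 2 to 8 (7mer-m8), one that pairs with positions 2 to 7 and ends in A (7mer-A1), or one with both features (8mer), in the longest 3′ untranslated region (3′ UTR) annotated for a gene in GENCODE 29. None of the 7 genes had a let-7a site, against 17.9% of the 12020 genes searched. FOSL1 and FOSL2 each had 1 miR-17 site, so 2 of the 7 genes did (28.6%, against 31.5% of all genes searched). The FOSL1 site, of the 7mer-A1 kind, lies at bases 395 to 401 of a 3′ UTR of 837 bases. The FOSL2 site, of the 7mer-m8 kind, lies at bases 4498 to 4504 of a 3′ UTR of 4864 bases. The sites are shown with their neighbouring bases, the seed match in capitals, as DNA on the gene's strand.
FOSL1 site: ctgacagaaggtgcCACTTTAcccaccta
FOSL2 site: aattacctttctggGCACTTTtttttttt

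The libraries resembled one another in which cell type markers were high and which stood near 0. Epithelial markers such as EPCAM (524.4 to 618.8 TPM) and KRT8 (1902.3 to 2910.4 TPM) were high in all 5, and 3 of 12 colon epithelial markers (CDX1, VIL1 and CEACAM5) were listed at 0 in each. KRT8 was higher with methylated (2910.4 TPM) and native miR-17 (2855.6 TPM) than in the other libraries, where it reached at most 2203.0 TPM. The summed TPM of 6 blood markers was 4.3 to 5.5, of 6 fibroblast markers 11.8 to 17.2, mostly COL1A1, of 3 endothelial markers 0.3 to 1.2, and of 4 neuronal markers 7.9 to 12.6, mostly MAP2, and PTPRC and DCN were listed at 0 throughout. Mitochondrial transcripts held 9.36% to 12.6% of the TPM. Read depth is unknown, since TPM keeps none, so no counting error can be given. With 1 library per group no difference has a replicate check, and none was tested. Differences below are on the scale of log2(TPM + 1), the first-named library minus the other, for the 14180 genes whose mean reached 1 TPM, a filter that all 7 genes passed. A gene was counted when TPM + 1 differed at least 2-fold, a rule of size and not a test. The 4 comparisons with the control share that single control library, so a value peculiar to it enters all 4.

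JUND was the most abundant of the 7 genes in every library and FOSB the least. JUND had 255.0 TPM with methylated let-7a, 249.2 with native let-7a, 231.5 with methylated miR-17, 267.6 with native miR-17 and 184.7 in the control. JUNB, at 112.0 to 155.5 TPM, and FOSL1, at 75.5 to 177.3 TPM, came next. FOSL1 stood above JUNB in both let-7a libraries and below it in both miR-17 libraries and the control, where the levels of FOSL1 and JUNB were 148.6 and 155.5 TPM. JUN followed in every library, at 44.8 to 61.6 TPM. FOS ranked above FOSL2 in the 4 microRNA libraries and below it in the control (21.8 against 23.5 TPM). FOSB stood at 1.6 to 2.4 TPM, where the table's single decimal limits its precision.

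**Figure D1:**
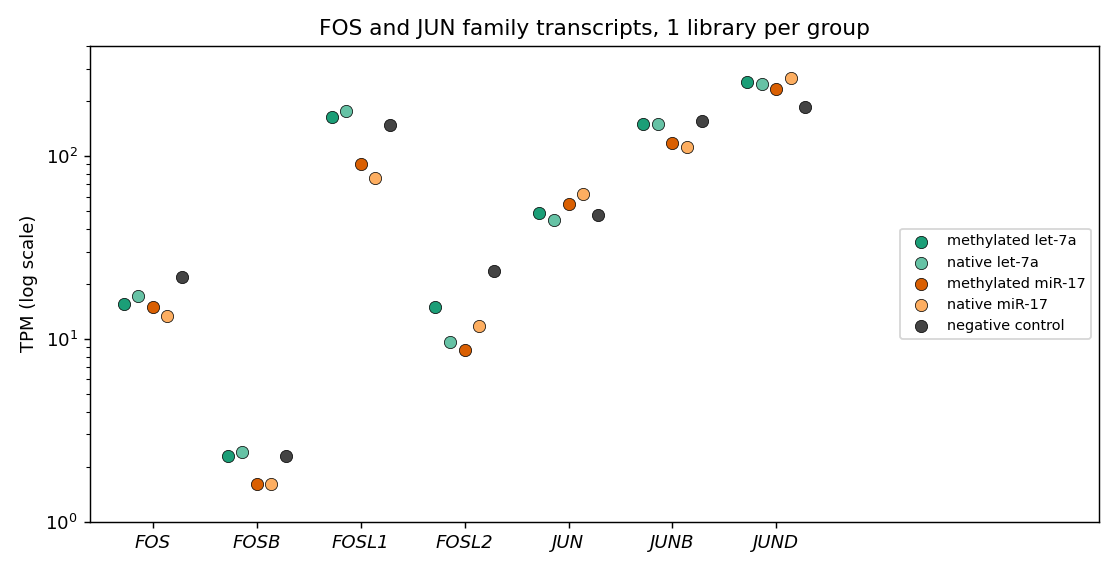
TPM of the 7 FOS and JUN family genes (log axis) in each of the 5 libraries, 1 point per library. FOSL1 sits at 75.5 and 89.9 TPM in the miR-17 libraries and at 148.6 to 177.3 TPM in the other 3, and FOSL2 is highest in the control at 23.5 TPM.

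FOSL2 and FOSL1 varied most over the 5 libraries. The highest TPM + 1 of FOSL2 was 2.53 times the lowest, a range reached by 4.12% of the genes tested, and that of FOSL1 was 2.33 times the lowest, reached by 5.06%. The other 5 genes had ranges of 1.31-fold to 1.58-fold, near the median of 1.34-fold over all genes. FOSB (1.31-fold), JUN (1.37-fold) and JUNB (1.38-fold) were closest to it, and 22.7% of genes had a range as large as that of FOS (1.58-fold).

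FOSL1 was low in both miR-17 libraries. It had 163.3 TPM with methylated let-7a, 177.3 with native let-7a, 89.9 with methylated miR-17, 75.5 with native miR-17 and 148.6 in the control. The miR-17 libraries did not overlap with the other 3, which lay at 148.6 to 177.3 TPM. Both miR-17 libraries lay below the other 3 in 24.0% of all genes tested and above them in 20.8%. Native miR-17 against the control gave a log2 difference of -0.97, a 1.96-fold lower TPM + 1 that fell just short of the 2-fold rule, and 1.85% of all genes were as low or lower. Methylated miR-17 against the control gave -0.72, at or below which 6.04% of all genes lay. Against the mean of the let-7a libraries in place of the control, the differences were -1.16 for native and -0.91 for methylated miR-17. The let-7a libraries were slightly above the control, by 0.25 with native and 0.14 with methylated let-7a.

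FOSL2 was lower than the control in all 4 microRNA libraries. It had 15.0 TPM with methylated let-7a, 9.6 with native let-7a, 8.7 with methylated miR-17, 11.8 with native miR-17 and 23.5 in the control. The control stood above all others, and the let-7a and miR-17 libraries overlapped. How many of all genes had the control highest, as here and for FOS, or lowest, as for JUND, was not counted. The differences from the control were -1.34 with methylated miR-17 (2.53-fold lower TPM + 1), -1.21 with native let-7a (2.31-fold lower), -0.94 with native miR-17 (1.91-fold lower) and -0.61 with methylated let-7a (1.53-fold lower). At most 2.66% of all genes were as low in any of these comparisons, and 0.797% were as low as FOSL2 with native let-7a. With the other microRNA's libraries in place of the control, native let-7a differed by -0.09 and native miR-17 by -0.06, while methylated let-7a was 0.51 higher and methylated miR-17 differed by -0.46. With a pseudocount of 5 the native let-7a difference was -0.96 and no longer 2-fold. The annotated 3′ UTRs of FOSL2 hold no let-7a site.

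FOS, the founding member and partner of JUN in the classical AP-1 dimer, was also highest in the control. It had 15.5 TPM with methylated let-7a, 17.2 with native let-7a, 14.9 with methylated miR-17, 13.4 with native miR-17 and 21.8 in the control. The differences from the control were -0.47 with methylated let-7a, -0.33 with native let-7a, -0.52 with methylated miR-17 and -0.66 with native miR-17, none of them 2-fold. With the other microRNA's libraries in place of the control the let-7a differences turned positive, at 0.12 with methylated and 0.26 with native let-7a, and those of miR-17 shrank to -0.13 with methylated and -0.27 with native miR-17. FOSB, a close relative of FOS, had 2.3 TPM with methylated let-7a, 2.4 with native let-7a, 1.6 in each miR-17 library and 2.3 in the control.

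Within the JUN family, JUNB was low in both miR-17 libraries, JUN was high in both, and JUND was lowest in the control. JUNB, which often restrains JUN activity, had 149.3 TPM with methylated let-7a, 150.5 with native let-7a, 117.9 with methylated miR-17, 112.0 with native miR-17 and 155.5 in the control. The miR-17 libraries lay below the other 3, of which the control was highest, with differences from the control of -0.40 (methylated) and -0.47 (native). JUN, a target of JNK and a strong activator, had 48.8 TPM with methylated let-7a, 44.8 with native let-7a, 54.4 with methylated miR-17, 61.6 with native miR-17 and 47.5 in the control. Here the miR-17 libraries lay above the other 3, by 0.19 (methylated) and 0.37 (native) relative to the control. JUND was above the control in all 4 microRNA libraries, by 0.46 with methylated let-7a, 0.43 with native let-7a, 0.32 with methylated miR-17 and 0.53 with native miR-17. Of all genes tested, 5.00% to 14.8% were as high or higher in these comparisons. With the other microRNA's libraries in place of the control, JUND differed by 0.03 with methylated let-7a, -0.002 with native let-7a, -0.12 with methylated miR-17 and 0.09 with native miR-17, all nearer to 0 than against the control. Both miR-17 libraries lay below the other 3 in 4 of the 7 genes (FOS, FOSB, FOSL1 and JUNB) and above them in 1 (JUN), against 24.0% and 20.8% of all genes tested, a count made after the values were seen.

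Counted by the 2-fold rule, 1 of the 7 genes (FOSL2) was lower with native let-7a and 0 were higher, where 1.18% of all genes tested were lower and 1.23% higher. With methylated let-7a 0 genes were counted in either direction, against 0.987% of all genes lower and 1.18% higher. With native miR-17 0 were counted, against 1.73% lower and 1.69% higher, and with methylated miR-17 1 (FOSL2) was lower and 0 were higher, against 2.40% lower and 1.32% higher. With the other microRNA's libraries in place of the control, FOSL1 was the 1 gene at least 2-fold higher with native let-7a (1.24% of all genes higher, 1.08% lower) and the 1 at least 2-fold lower with native miR-17 (0.973% higher, 1.32% lower). Both FOSL1 counts set let-7a against miR-17 libraries, so they are not separate results. In that setting 0 were counted with methylated let-7a (1.21% higher, 1.23% lower) or with methylated miR-17 (0.677% higher, 1.61% lower). By sign, and against the control, 5 of the 7 genes were lower and 2 higher with each form of miR-17, 4 lower and 3 higher with native let-7a, and 3 lower, 3 higher and 1 equal with methylated let-7a. Over all genes tested, 56.3% were lower with methylated miR-17, 46.5% with native miR-17, 47.9% with native let-7a and 56.1% with methylated let-7a. The median of the 7 differences was -0.40 with methylated and -0.47 with native miR-17, against medians over all genes of -0.06 and 0.02. It was -0.05 with native let-7a and 0.00 with methylated let-7a, against 0.00 and -0.04 over all genes. At a lower rule of 1.5-fold, 3 genes (FOS, FOSL1 and FOSL2) were lower with native miR-17 and 0 higher, against 6.08% and 6.67% of all genes. With methylated miR-17 2 (FOSL1 and FOSL2) were lower and 0 higher, against 10.2% and 5.44%. FOSL2 was the 1 gene lower by this rule with native let-7a (3.92% of all genes lower, 4.28% higher) and with methylated let-7a (3.04% lower, 3.39% higher), and 0 were higher.

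**Figure D2:**
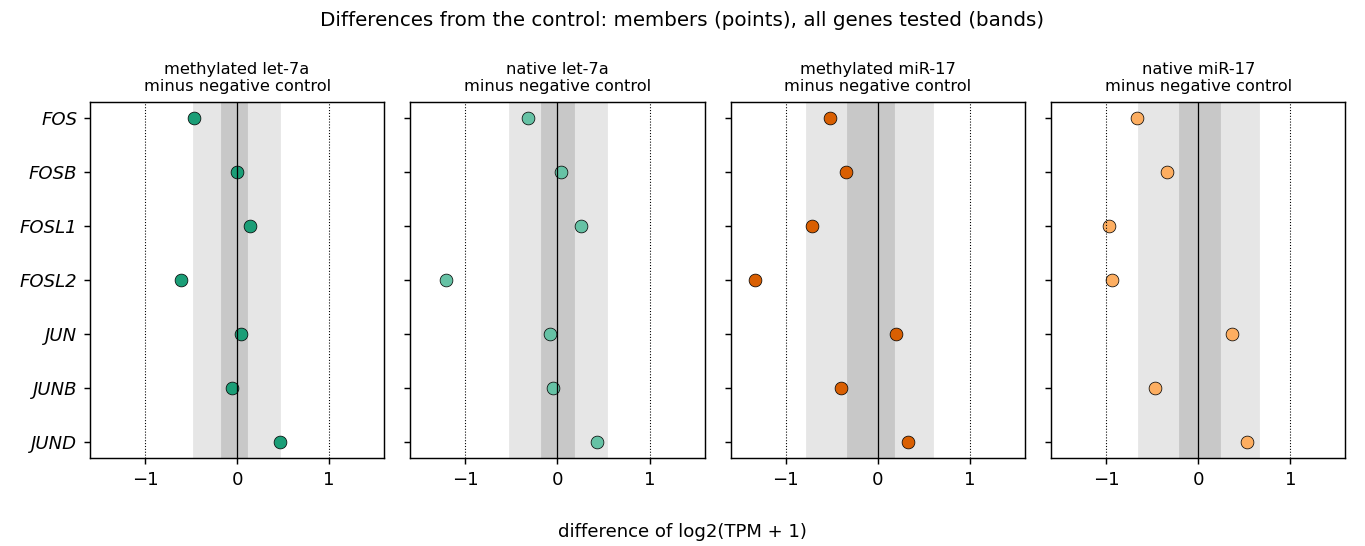
Differences of log2(TPM + 1) from the negative control for the 7 genes (points) in the 4 microRNA libraries, with the central 50% (dark band) and 90% (light band) of all genes tested and dotted lines at 2-fold. FOSL2 lies left of the light band in all 4 panels, FOSL1 (-0.97) and FOS (-0.66) in the native miR-17 panel, and JUND lies right of 0 in each. In the methylated let-7a panel FOS (-0.47) and JUND (0.46) lie barely outside the edges of the light band.

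The make-up of the family's transcripts differed accordingly. The 4 FOS genes summed to 196.1 TPM with methylated let-7a, 206.5 with native let-7a, 115.1 with methylated miR-17, 102.3 with native miR-17 and 196.2 in the control. The 3 JUN genes summed to 453.1, 444.5, 403.8 and 441.2 TPM in the same 4 microRNA libraries and to 387.7 TPM in the control. FOS genes thus held 30.2% of the pool with methylated let-7a, 31.7% with native let-7a, 22.2% with methylated miR-17, 18.8% with native miR-17 and 33.6% in the control. FOSL1 alone held 13.9% with native miR-17 and 25.4% in the control, and JUND 49.2% with native miR-17 and 31.6% in the control. For each FOS family transcript there were 4.31 JUN family transcripts with native miR-17, 3.51 with methylated miR-17, 2.31 with methylated let-7a, 2.15 with native let-7a and 1.98 in the control. These are shares of RNA, and protein was not measured.

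**Figure D3:**
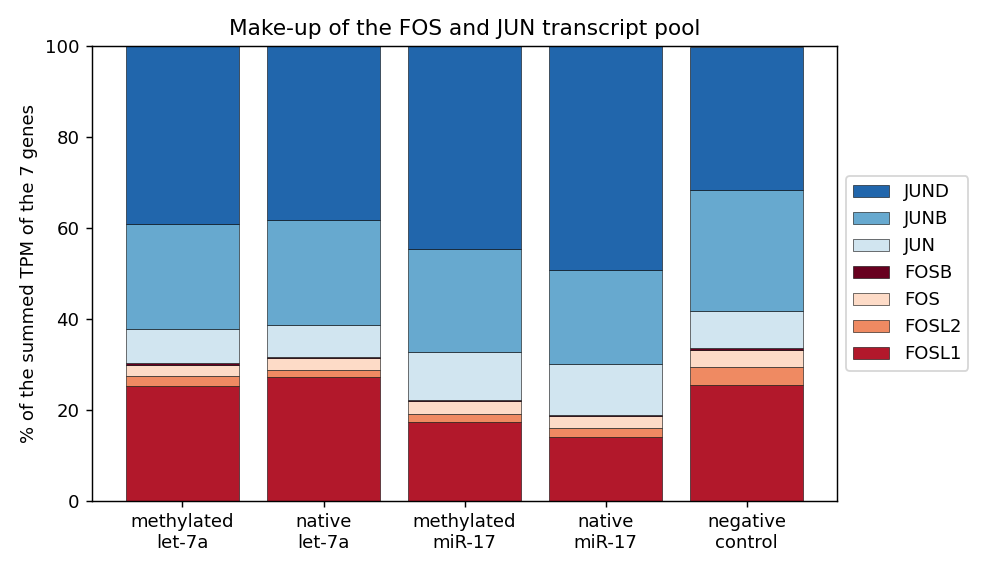
Stacked bars of each gene's percent of the summed TPM of the 7 genes, per library, FOS family below in reds and JUN family above in blues. The FOS family takes 18.8% and 22.2% in the miR-17 libraries and 30.2% to 33.6% in the other 3.

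Setting each methylated microRNA against its native form asked whether the modification altered these levels. By the 2-fold rule 0 of the 7 genes were counted for let-7a, against 0.952% of all genes higher and 0.980% lower, and 0 for miR-17, against 0.684% higher and 0.994% lower. At 1.5-fold 1 (FOSL2) was higher and 0 lower for let-7a, against 2.24% and 2.39% of all genes, and 0 were counted for miR-17, against 1.57% higher and 2.73% lower. The largest difference for let-7a was FOSL2, at 15.0 TPM with the methylated and 9.6 TPM with the native form (0.59, reached by 2.12% of all genes). For miR-17 it was also FOSL2, in the opposite direction, at 8.7 TPM with the methylated and 11.8 TPM with the native form (-0.40, at or below which 6.29% of genes lay). FOSL1 had 89.9 TPM with methylated and 75.5 TPM with native miR-17 (0.25), and 4.88% of genes were as high or higher in that comparison, in which the median gene was 0.09 lower (-0.09).

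The position of FOSL1 and FOSL2 among genes with a miR-17 seed site was read from the medians of those genes. In native miR-17 against the control, the 3121 genes whose best site is a 7mer had a median difference of -0.05, the 664 with an 8mer -0.28, and the 8235 with no site 0.05. In methylated miR-17 the medians were -0.18, -0.43 and -0.02 in the same order. Genes grouped by let-7a site instead (7mer, 8mer, none) had medians of -0.14, -0.12 and -0.06 with methylated miR-17. With native miR-17 these were 0.00, 0.01 and 0.01. A lower median of site genes with methylated miR-17 was thus not limited to miR-17 sites. FOSL1 (-0.97 and -0.72 with native and methylated miR-17) and FOSL2 (-0.94 and -1.34), each with a single miR-17 7mer, lay below the median of the genes with a miR-17 8mer in both comparisons. Members without a site in the longest 3′ UTR also lay below that median, namely FOS (-0.66), JUNB (-0.47) and FOSB (-0.34) with native miR-17 and FOS (-0.52) with methylated miR-17. Whether either site contributes to the values was not tested.

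All 7 longest 3′ UTRs held the pentamer ATTTA, the core of AU-rich elements that speed the decay of immediate early messages, and so did 72.7% of the 12020 genes searched. FOSL2 had 9 copies in its 4864 bases, FOS 5 in 806, FOSB 3 in 2167, JUN 3 in 1287, JUNB 2 in 500, and FOSL1 and JUND 1 each in 837 and 681 bases. The longer motif TTATTTATT was found in FOS and FOSL2, each once, and in 9.3% of all genes. Of 10 factors that act on such or related messages, 8 were lower with methylated and 9 with native let-7a, and 8 with methylated and 7 with native miR-17, and 0 reached 2-fold. Of all genes, 56.1% and 47.9% were lower in the let-7a comparisons and 56.3% and 46.5% in those of miR-17, in the same order. The median of this list was between -0.15 and -0.06 in the 4 comparisons, against -0.06 to 0.02 over all genes. In these comparisons 0.987% to 2.40% of all genes were at least 2-fold lower and 1.18% to 1.69% at least 2-fold higher. ZFP36 (tristetraprolin), which promotes decay, had 93.6 TPM with methylated let-7a, 103.3 with native let-7a, 78.1 with methylated miR-17, 80.0 with native miR-17 and 86.7 in the control. Its relative ZFP36L2, the lowest of the list with let-7a, had 16.3 TPM with methylated let-7a, 16.6 with native let-7a, 17.8 with methylated miR-17, 18.1 with native miR-17 and 21.2 in the control. With miR-17 the extremes were ZFP36L1, another relative, at 125.0 TPM with methylated and 139.6 with native miR-17 against 115.2 in the control, and PUM2, a Pumilio protein that represses messages, at 52.4 TPM with methylated and 60.3 with native miR-17 against 72.4 in the control.

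Promoter windows of all genes but FOSL1, 6 in number, were taken from RefSeq (GRCh38.p14), from 250 bases before to 50 bases after the annotated start. They were searched on both strands for AP-1 and CRE-type motifs, since AP-1 proteins bind their own family's promoters, among others. TGANTCA, a pattern wider than the AP-1 element because any middle base was allowed, occurred in FOSL2 and in 7.76% of all 27305 promoter windows. TGACGTCA, the CRE, occurred in JUND and in 1.98% of windows, and TGACATCA, a variant of the CRE, in JUN and in 2.71%. The motifs do not overlap one another in these windows, and FOS, FOSB and JUNB held none of them there. The CArG box, the core of the serum response element, occurred in 0 of the 6 windows and in 1.29% of all. The known serum response element of FOS lies further upstream than the window reaches, so its absence here was set by the window. The matches are shown in capitals on each gene's strand.
FOSL2, chr2:28392852-28392878 (+): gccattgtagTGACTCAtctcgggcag
JUND, chr19:18281805-18281832 (-): gccgcccccaTGACGTCAacccacaagg
JUN, chr1:58784097-58784124 (-): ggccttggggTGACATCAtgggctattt

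Of 10 transcription factors known to act on FOS and JUN promoters, 10 were lower with methylated and 7 with native miR-17 against the control. In each, 2 of them (ELK3 and ELK4) were at least 2-fold lower, against 2.40% of all genes with methylated and 1.73% with native miR-17. ELK3 and ELK4 are ternary complex factors, which bind the serum response element with SRF and respond to ERK signalling. Whether their levels bear on that of FOS was not tested. ELK3 had 89.3 TPM with methylated let-7a, 84.2 with native let-7a, 42.1 with methylated miR-17, 46.3 with native miR-17 and 98.3 in the control. ELK4 had 34.6 TPM with methylated let-7a, 31.2 with native let-7a, 13.9 with methylated miR-17, 16.6 with native miR-17 and 35.0 in the control. Their longest 3′ UTRs hold 2 and 4 miR-17 sites. ELK1 (45.0 TPM with methylated miR-17, 45.6 with native miR-17 and 52.7 in the control) and SRF (25.7, 31.1 and 27.5 TPM in the same order) stood closer to the control. With native let-7a 8 of the 10 were lower and with methylated let-7a 7. None reached 2-fold, where 1.18% of all genes were at least 2-fold lower with native and 0.987% with methylated let-7a. Over all genes 56.3% were lower with methylated miR-17, 46.5% with native miR-17, 47.9% with native let-7a and 56.1% with methylated let-7a. The list's median was -0.20 with native and -0.38 with methylated miR-17, against 0.02 and -0.06 over all genes.

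Of 31 MAPK and JNK cascade kinases tested, which phosphorylate FOS and JUN proteins or the factors upstream, 24 were lower with methylated miR-17 (median -0.26) and 23 with native miR-17 (median -0.17). Of all genes 56.3% (median -0.06) and 46.5% (median 0.02) were lower in these comparisons. MAP3K5, an upstream kinase of JNK and p38, had 7.1 TPM with methylated miR-17, 8.0 with native miR-17 and 16.9 in the control. With methylated miR-17 its TPM + 1 was 2.21-fold lower, and it holds an 8mer miR-17 site. MAPK12, a p38 kinase, had 11.3 TPM with methylated miR-17, 13.5 with native miR-17 (2.04-fold higher TPM + 1) and 6.1 in the control. With let-7a 20 (native) and 21 (methylated) of the 31 were lower, with medians of -0.07 and -0.09 and no 2-fold member, against 47.9% and 56.1% of all genes, with medians of 0.00 and -0.04. Of 17 regulators of FOS and JUN protein turnover and activity, 12 were lower with methylated and 10 with native let-7a, and 12 with methylated and 10 with native miR-17, and 0 reached 2-fold in any of the 4. Of these 4 shares, those of the methylated forms stand beside 56.1% (let-7a) and 56.3% (miR-17) of all genes and those of the native forms beside 47.9% and 46.5%. The list's medians were -0.10 with either let-7a, -0.20 with methylated and -0.04 with native miR-17. In the 4 comparisons, 0.987% to 2.40% of all genes were at least 2-fold lower and 1.18% to 1.69% at least 2-fold higher.

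Among 14 tested bZIP proteins outside the FOS and JUN families that can pair with them or with their partners, JDP2, a repressor that dimerises with JUN, stood highest against the control. It had 17.8 TPM with methylated let-7a, 20.8 with native let-7a, 20.9 with methylated miR-17, 23.9 with native miR-17 and 11.9 in the control, so that all 4 microRNA libraries lay above the control, by 1.46-fold to 1.93-fold in TPM + 1. The share of all genes with the control lowest was not counted. MAFK, a small MAF protein, had 17.9 TPM with methylated miR-17, 22.6 TPM with native miR-17 and 27.7 TPM in the control. At least 2-fold lower was 1 of the 14, BATF3 with methylated miR-17 (against 2.40% of all genes), named after its values were seen. BATF3 had 2.3 TPM with methylated let-7a, 1.7 with native let-7a, 1.2 with methylated miR-17, 2.5 with native miR-17 and 3.9 in the control. In all, 10 of the 14 were lower with methylated miR-17, 6 with native miR-17, 6 with methylated let-7a and 5 with native let-7a. The shares lower over all genes were 56.3%, 46.5%, 56.1% and 47.9% in that order. The list's median was -0.25, 0.09, 0.02 and 0.04, and for native miR-17 it turned to -0.12 when the filter was raised to 5 TPM.

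Textbook AP-1 target genes were mostly lower with miR-17. A total of 32 were tested, which include FOSL1 and JUN themselves. Of these, 24 were lower with native and 25 with methylated miR-17, where 46.5% and 56.3% of all genes were lower. With native miR-17 4 were at least 2-fold lower and 1 higher, against 1.73% and 1.69% of all genes. With methylated miR-17 3 were at least 2-fold lower and 1 higher, against 2.40% and 1.32%. The list's median was -0.35 with native and -0.41 with methylated miR-17, against 0.02 and -0.06 over all genes, and without the filter on low values, which adds genes near 0 TPM, it was -0.13 and -0.24. Both miR-17 libraries lay below the other 3 for 23 of the 32 genes and above them for 3 (GSTP1, JUN and ODC1), against 24.0% and 20.8% of all genes. EREG, an EGF-family growth factor, had 676.5 TPM with methylated let-7a, 758.0 with native let-7a, 254.4 with methylated miR-17, 257.1 with native miR-17 and 684.1 in the control. EREG holds a 7mer miR-17 site. AREG, another EGF-family ligand and without such a site, had 257.5 TPM with methylated miR-17, 237.1 with native miR-17 and 477.1 in the control. ITGA2, an integrin subunit with a 7mer site, had 17.1 TPM with methylated miR-17, 19.7 with native miR-17 and 36.7 in the control. The cytokine gene IL8, named after its values were seen, had 1.1 TPM with methylated miR-17, 1.0 with native miR-17 and 3.1 in the control. ODC1, the first enzyme of polyamine synthesis, ran the other way, at 540.0 TPM with methylated miR-17, 572.7 with native miR-17 and 265.3 in the control. GSTP1, a glutathione transferase, named after its values were seen, had 668.4 TPM with methylated let-7a, 737.5 with native let-7a, 1046.0 with methylated miR-17, 954.8 with native miR-17 and 714.7 in the control.

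With let-7a the same target list had 13 lower and 16 higher members (native) and 17 lower and 15 higher members (methylated). Its medians were 0.01 and -0.02, and no member reached 2-fold. Of all genes 47.9% and 56.1% were lower, 1.18% and 0.987% at least 2-fold, with medians of 0.00 and -0.04. HMOX1, heme oxygenase, had 95.7 TPM with methylated let-7a, 104.0 with native let-7a and 63.2 in the control. Collagenases and stromelysins of the list, classical AP-1 targets in fibroblasts, stood near 0 in all libraries, with MMP1 at 0.2 TPM or less and MMP3 listed at 0.

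Other immediate early genes, 28 of which were tested, were lower in 21 cases with methylated let-7a (median -0.16), 15 with native let-7a (-0.12), 23 with methylated miR-17 (-0.32) and 22 with native miR-17 (-0.22). Over all genes 56.1%, 47.9%, 56.3% and 46.5% were lower in that order, with medians of -0.04, 0.00, -0.06 and 0.02. By the 2-fold rule 3 were lower with native and 2 with methylated miR-17, against 1.73% and 2.40% of all genes. With either let-7a 0 were lower, against 1.18% of all genes with native and 0.987% with methylated let-7a. KLF2, a zinc finger factor without a miR-17 site in its longest 3′ UTR, had 33.5 TPM with methylated miR-17, 28.5 with native miR-17 and 78.6 in the control. NR4A2, a nuclear receptor with a 7mer miR-17 site, had 24.3 TPM with methylated miR-17, 23.5 with native miR-17 and 53.8 in the control. For 16 of the 28 genes, KLF2, NR4A2, DUSP2 and EGR1 included, both miR-17 libraries lay below the other 3, and for 2 above. The shares over all genes tested were 24.0% below and 20.8% above. DUSP2, a MAPK phosphatase with an 8mer miR-17 site and also 1 let-7a site, had 6.7 TPM with native miR-17 and 19.3 in the control. EGR1, also without a miR-17 site, had 69.1 TPM with methylated let-7a, 77.3 with native let-7a, 56.6 with methylated miR-17, 56.8 with native miR-17 and 111.9 in the control. Of all genes searched, 31.5% held a miR-17 site.

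**Figure D4:**
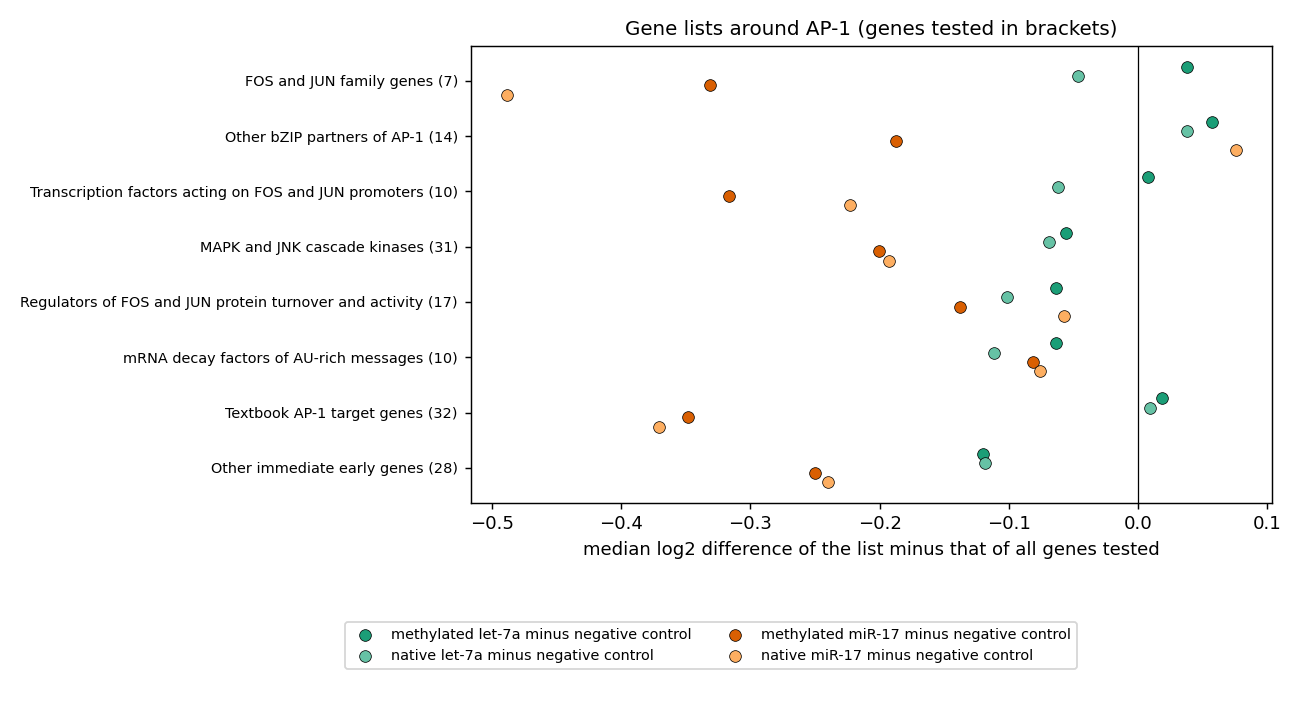
Median log2 difference from the control of each gene list minus the median of all genes tested, 1 point per microRNA library, with the number of genes tested in brackets. The miR-17 points of the FOS and JUN genes, the textbook targets, the factors at FOS and JUN promoters, the MAPK and JNK cascade kinases and the other immediate early genes lie left of the let-7a points, those of the other 3 lists do not both do so, and the lists share the control library and some genes.

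For each of the 7 genes whose mean reached 5 TPM, the 3 genes with the most similar pattern over the 5 libraries were sought where the mean reached 20 TPM, by the root mean square distance of log2(TPM + 1) after centring each gene on its own mean. Nearest to FOSL1 was CFL2, a muscle-type cofilin, at a distance of 0.06 against a median of 0.50 over 6222 genes, followed by FAM3C2, which as a close copy of FAM3C may share reads with it, and FGFBP1, a carrier of fibroblast growth factors (0.08 each). CFL2 had 67.6 TPM with methylated let-7a, 73.2 with native let-7a, 36.8 with methylated miR-17, 34.1 with native miR-17 and 66.2 in the control, and has 2 miR-17 sites, whereas FGFBP1 has none. Nearest to FOSL2 were SLC2A1, the main glucose transporter, HK2, a hexokinase, and ERO1L, an endoplasmic reticulum oxidase, each at 0.14 against a median of 0.49. SLC2A1 had 406.1 TPM with methylated let-7a, 235.7 with native let-7a, 286.8 with methylated miR-17, 300.5 with native miR-17 and 608.6 in the control. HK2 had 59.3, 38.5, 37.1 and 37.6 TPM in the same microRNA libraries and 79.5 TPM in the control.

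**Figure D5:**
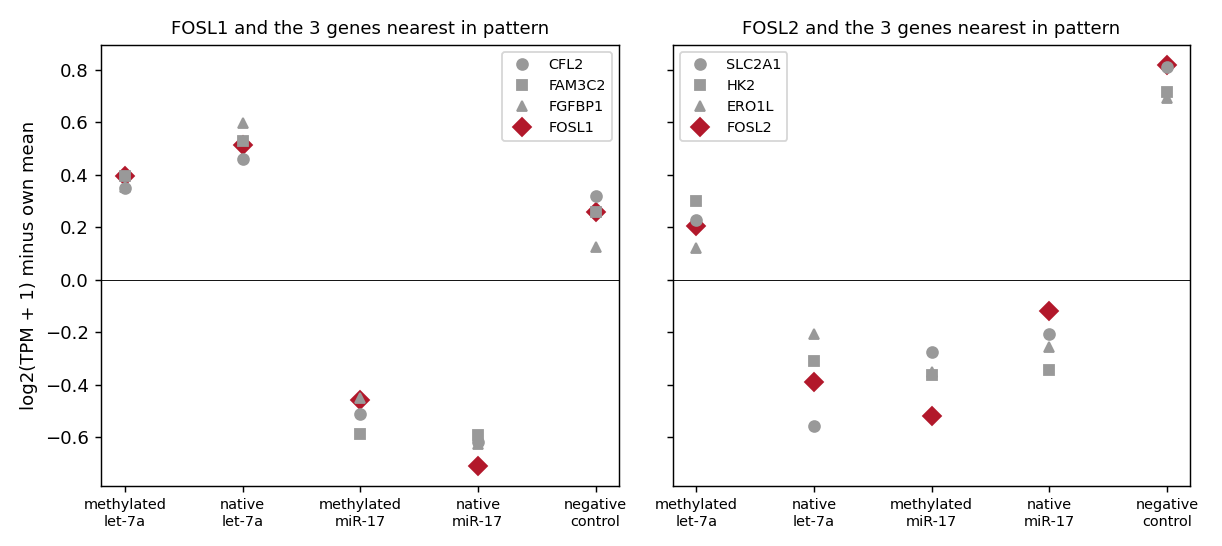
Centred log2(TPM + 1) of FOSL1 (left) and FOSL2 (right, red diamonds) and of the 3 genes nearest to each in pattern (grey), by library. FOSL1 and its neighbours are low in both miR-17 libraries, and FOSL2 and its neighbours, at distances of 0.14, are highest in the control and next in methylated let-7a.

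JUNB lay nearest to SERTAD1, a transcriptional cofactor of the E2F pathway (distance 0.02), at 72.6 TPM with methylated let-7a, 73.7 with native let-7a, 59.5 with methylated miR-17, 55.1 with native miR-17 and 75.4 in the control. JUND lay nearest to MYEOV (0.02), at 81.1, 78.5, 72.0 and 84.2 TPM in the same microRNA libraries and 55.7 TPM in the control. JUN lay nearest to SH3D19 (0.02) and FOS to MYO1E, an unconventional myosin (0.05). Many genes lie near a pattern of small amplitude, and the median distance from JUN was 0.19. In GENCODE 29 only JUNB shares exonic bases with another gene, HOOK2 on the opposite strand (23.2 to 26.9 TPM), and whether reads were counted by strand is not given in the sources used here.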

How the data were processed

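The values are TPM per gene as the authors deposited them, rounded to 1 decimal, with 1 column per library. Per the submitters' processing notes the build was hg19. No aligner, counter or annotation is named in the sources used here. Libraries were stranded and depleted of ribosomal RNA (TruSeq), from total RNA, per the labels' protocols. Differences of log2(TPM + 1) were computed in Python 3.11.15 (pandas 2.3.3, numpy 2.4.6) for genes whose mean reached 1 TPM, without tests, since each group holds 1 library. TPM is a share of the library, so a change in abundant genes shifts all others. The 7 genes, the 7 gene lists and the rules were chosen with earlier results of these data known. From each list, genes whose mean reached 5 TPM were named when at least 2-fold apart from the control, up to 4 per comparison, otherwise the extremes in each direction; a few others are named for context. Some genes that the rule names, and 1 site sequence, are not reported here. Sites were searched in GENCODE 29, which uses another build, so no coordinates were taken from it. The difference and site searches were tested on simulated data. The alternatives tried were other pseudocounts, filters, scalings, a 1.5-fold rule and other reference libraries.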

Additional observations from a re-analysis of the deposited data

Results flagged for a closer look

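In 6 of the 7 genes the methylated form of let-7a differed from its native form in one direction and the methylated form of miR-17 differed from native miR-17 in the other, with 1 library on each side. Opposite signs were found in 48.6% of the 14180 genes tested. The difference between the microRNAs was not tested. The difference in let-7a minus that in miR-17, in log2(TPM + 1), was 0.99 for FOSL2, which was higher with methylated let-7a (0.59) and lower with methylated miR-17 (-0.40). It was -0.37 for FOSL1 (-0.12 in let-7a and 0.25 in miR-17) and -0.28 for FOS (-0.14 and 0.14). It was 0.30 for JUN (0.12 and -0.18), 0.24 for JUND (0.03 and -0.21) and -0.08 for JUNB (-0.01 and 0.07). For JUNB the let-7a part changed sign, to 0.03 with median-of-ratios scaling and to 0.02 without mitochondrially encoded genes.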

How the results depend on the processing

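With the mean of the other microRNA's libraries in place of the control, the median of the 7 genes was 0.34 with methylated let-7a, 0.26 with native let-7a and -0.27 with native miR-17. In that setting 1 gene was at least 2-fold higher (FOSL1) and 0 lower with native let-7a, 1 lower (FOSL1) with native miR-17 and 0 lower with methylated miR-17, against 1.24% of all genes higher and 1.08% lower with native let-7a, 1.32% lower with native miR-17 and 1.61% lower with methylated miR-17. The FOSL1 counts are not separate results, since both set let-7a against miR-17 libraries. The median of the other immediate early genes turned to 0.23 with methylated and 0.28 with native let-7a. The cause was not tested. A 1.5-fold rule counted 3 genes lower with native miR-17 (FOS, FOSL1 and FOSL2) and 2 with methylated miR-17 (FOSL1 and FOSL2). The shares of all genes lower were 6.08% and 10.2%. The rule counted 1 lower with methylated let-7a (FOSL2) and 1 higher in methylated against native let-7a (FOSL2), against 3.04% and 2.24% of all genes. With a pseudocount of 5, FOSL2 in native let-7a was -0.96 and 0 genes were counted as lower, and with 0.1 the median in methylated miR-17 was -0.50. Under either scaling, without a filter or with one of 5 TPM, which leaves out FOSB, the 2-fold counts of the 7 genes were equal and their medians differed by less than 0.1 (log2). The largest shifts were to -0.32 in methylated miR-17 with median-of-ratios scaling and to -0.57 in native miR-17 with the filter at 5 TPM, and the median of methylated against native let-7a, near 0, turned to 0.03 with median-of-ratios scaling. FOSB with methylated let-7a, equal to the control in TPM, stood at 0.02 with median-of-ratios scaling and -0.01 without mitochondrially encoded genes. Searching any annotated 3′ UTR gave 3 of 7 genes a miR-17 site and 0 a let-7a site, against 33.7% and 19.4% of all genes searched. Without a filter the median of the textbook targets was -0.13 with native and -0.24 with methylated miR-17, and with the filter at 5 TPM that of the bZIP list was -0.12 with native miR-17. No paired analysis was possible because each group holds 1 library. Depth is unknown, and FOSB is limited by rounding.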

Other observations

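Further genes of the textbook AP-1 target list, chosen after their values were seen, were lower in both miR-17 libraries than in the other 3 without reaching 2-fold against the control. PLAU, the urokinase protease, had 363.7 TPM with methylated let-7a, 407.4 with native let-7a, 201.4 with methylated miR-17, 197.8 with native miR-17 and 274.8 in the control. CD44, a hyaluronan receptor, had 219.6 TPM with methylated miR-17, 226.9 with native miR-17 and 353.4 in the control. CCND1, cyclin D1, had 260.4 TPM with methylated miR-17, 272.0 with native miR-17 and 382.4 in the control. VEGFA, the vascular growth factor, had 18.0 TPM with methylated miR-17, 20.6 with native miR-17 and 32.6 in the control. They are 4 of the 23 genes of the list, 2-fold ones included, for which both miR-17 libraries lay below the other 3. For GSTP1, JUN and ODC1 both miR-17 libraries lay above the other 3. Of all genes tested, 24.0% lay below in this way and 20.8% above. STAT3, a factor at the FOS promoter with 3 miR-17 sites in its longest 3′ UTR, had 74.3 TPM with methylated let-7a, 77.2 with native let-7a, 51.7 with methylated miR-17, 57.5 with native miR-17 and 83.0 in the control.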
